A study of Mus musculus with 16 samples.

Results

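Hyal5, Smcp, Paqr9 and Fam13a are 4 genes that were abundant in the neonatal mouse jejunum and much lower after weaning. They were chosen by their measured jejunal counts, for a high level in the jejunum at postnatal day 6 (P6) and a strong fall by P36, and are 4 of the 24421 genes counted in each library. The values behind the choice are therefore given as a description with no test, and tests are given only for the ileum and for sex. Epithelium was released with EDTA from the jejunum and the ileum of 4 wild-type C57BL6/J mice at P6 and 4 at P36, so that each mouse gave 2 bulk RNA-seq libraries and the 4 groups held 4 libraries each. No group carried a mutation or received a treatment, each age had 2 male mice and 2 female mice, and the mice differed between ages.

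In the suckling intestine, enterocytes take up milk proteins whole by endocytosis and digest them in lysosomes, and the jejunum takes up milk fat and maternal antibodies. At weaning these cells are replaced by enterocytes that digest starch and sucrose at the brush border. None of the 4 genes is a classical marker of this switch. Hyal5 encodes a hyaluronidase, an enzyme that cuts the matrix polysaccharide hyaluronan, and Smcp encodes a cysteine-rich protein of the capsule around sperm mitochondria, and both are best known from the testis. Paqr9 encodes a membrane protein of the progestin and adipoQ receptor (PAQR) family, and Fam13a encodes a protein with a GTPase-activating domain that is studied in lung and fat.

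The genes lie on chromosomes 3, 6 and 9 of the mm10 genome, with Hyal5 and Fam13a far apart on chromosome 6. Hyal5 spans chr6:24857997-24891958 on the plus strand with 4 exons, Smcp chr3:92583866-92589024 on the minus strand with 2 exons, Paqr9 chr9:95559817-95562121 on the plus strand with 1 exon, and Fam13a chr6:58933536-59024502 on the minus strand with 18 exons. No exon of another counted gene overlapped an exon of any of them.

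Promoter sequences are shown as a description. Hyal5 and Smcp moved together over all 16 libraries, but both were chosen for a fall with age in the jejunum. Their likeness is therefore no independent reason to look for shared letters. A RefSeq entry of GRCm38.p6 was matched for 3 of the 4 genes, with Paqr9 as the exception. Each line gives 170 bases, from 120 before the RefSeq start to 50 after it, and capitals mark matches to the motifs searched on both strands and the longest run of letters shared by Smcp and Hyal5.
Smcp, chr3:92589024-92589193, minus strand: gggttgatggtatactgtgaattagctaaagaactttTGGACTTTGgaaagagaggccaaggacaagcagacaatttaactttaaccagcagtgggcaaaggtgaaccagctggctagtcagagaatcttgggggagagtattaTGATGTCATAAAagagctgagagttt
Hyal5, chr6:24857877-24858046, plus strand: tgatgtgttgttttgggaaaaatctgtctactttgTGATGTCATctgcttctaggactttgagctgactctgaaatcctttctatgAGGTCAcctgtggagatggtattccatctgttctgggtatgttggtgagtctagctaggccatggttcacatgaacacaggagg
Fam13a, chr6:59024453-59024622, minus strand: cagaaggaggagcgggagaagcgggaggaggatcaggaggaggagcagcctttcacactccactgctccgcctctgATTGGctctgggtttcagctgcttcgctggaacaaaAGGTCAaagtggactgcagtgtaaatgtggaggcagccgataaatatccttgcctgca

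Smcp held the Hnf4 letters CAAAGTCCA on the opposite strand 83 bases before the start, letters found in 0.475% of the 32851 promoters of this length. Hyal5 and Fam13a each held the nuclear receptor half-site AGGTCA, 34 and 8 bases before the start, as did 16.3% of all promoters. Fam13a held CCAAT at 2 places in its full window (37.4% of promoters). The run TGATGTCAT was shared by Smcp and Hyal5 and present in 1.37% of promoters. The longest run shared by Smcp and Fam13a was AGCAGTGG (1.99% of promoters) and that shared by Hyal5 and Fam13a was AGAGGAA (10.4%). In Smcp the run TGATGTCAT overlapped a match to the Cdx letters TTTATG (11.9% of promoters). The runs were picked out after the sequences were compared, and in Smcp TGATGTCAT lies after the RefSeq start but before the start used in the count files. These are matches of letters only, and no binding was measured.

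Library totals, in units of 1e6 counts, ran from 12.2 to 25.9. Epcam, a surface protein of epithelial cells, was at 1137 CPM (counts scaled to 1e6 per library) or more in every library. P6 ileum replicate 2 stood apart from the other P6 ileum libraries by its connective and muscle genes. It had 80.3 CPM of the smooth muscle myosin Myh11 against 0.0542 to 0.735 in the other 3 libraries. P6 ileum replicate 4 differed in enterocyte genes in both directions. The microvillus protein Vil1 was lowest there, at 751 CPM against 1441 to 1545. Apob, at 13498 CPM against 4751 to 8302, and Fabp2, at 948 against 239 to 438, were highest there. The P36 ileum libraries were uneven as well, with the enterocyte list summing to between 7138 and 24498 CPM. Their replicate 1 had 7268 CPM of Fabp2 against 471 to 1724 in the others, and 4211 CPM of Apob against 482 to 1171. Bulk libraries cannot tell apart fewer cells of a type and less RNA per cell.

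Hyal5 was abundant in both regions at P6 and nearly absent in both at P36. Its level in the P6 jejunum was 237, 242, 183 and 209 CPM in replicates 1 to 4, a mean of 218 ± 27.1 (SD, n = 4), and no read was counted in any P36 jejunum library. All P6 jejunum libraries thus lay above all P36 jejunum libraries. In the P6 ileum Hyal5 was at 147, 162, 140 and 273 CPM, a mean of 180 ± 62.4 (SD, n = 4), with replicate 4 well above the other 3. In the P36 ileum it had 0, 2, 0 and 1 counts.

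Smcp followed the same pattern at a lower level. In the P6 jejunum it was at 60.6, 108, 38.7 and 103 CPM in replicates 1 to 4, a mean of 77.5 ± 33.4 (SD, n = 4), and it had no count in the P36 jejunum. In the P6 ileum it was at 36.8, 75.3, 26.9 and 63.6 CPM, a mean of 50.6 ± 22.6 (SD, n = 4). The order of the mice was the same in both regions, with replicates 2 and 4 above replicates 1 and 3. In the P36 ileum Smcp had 0, 1, 0 and 3 counts.

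Paqr9 was high in the P6 jejunum and low everywhere else. The P6 jejunum libraries held 413, 453, 352 and 435 CPM in replicates 1 to 4, a mean of 413 ± 44.0 (SD, n = 4). The P6 ileum libraries held 10.2, 8.08, 3.96 and 12.3 CPM, a mean of 8.63 ± 3.56 (SD, n = 4), all far under the jejunum. At P36 the jejunum had 1, 3, 3 and 13 counts and the ileum 0, 1, 0 and 2 counts, so that replicate 4 held most of the 20 counts left in the P36 jejunum.

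Fam13a was also high only in the P6 jejunum, but it kept a low level in every other library. The P6 jejunum libraries held 534, 464, 432 and 485 CPM in replicates 1 to 4, a mean of 479 ± 42.8 (SD, n = 4). The P36 jejunum libraries held 17.8, 26.8, 21.5 and 23.5 CPM, a mean of 22.4 ± 3.78 (SD, n = 4), with no overlap with P6. In the ileum Fam13a was at 12.7, 13.7, 8.29 and 15.2 CPM at P6 and at 9.89, 11.8, 14.4 and 9.41 CPM at P36, and these ranges overlapped.

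**Figure D1:**
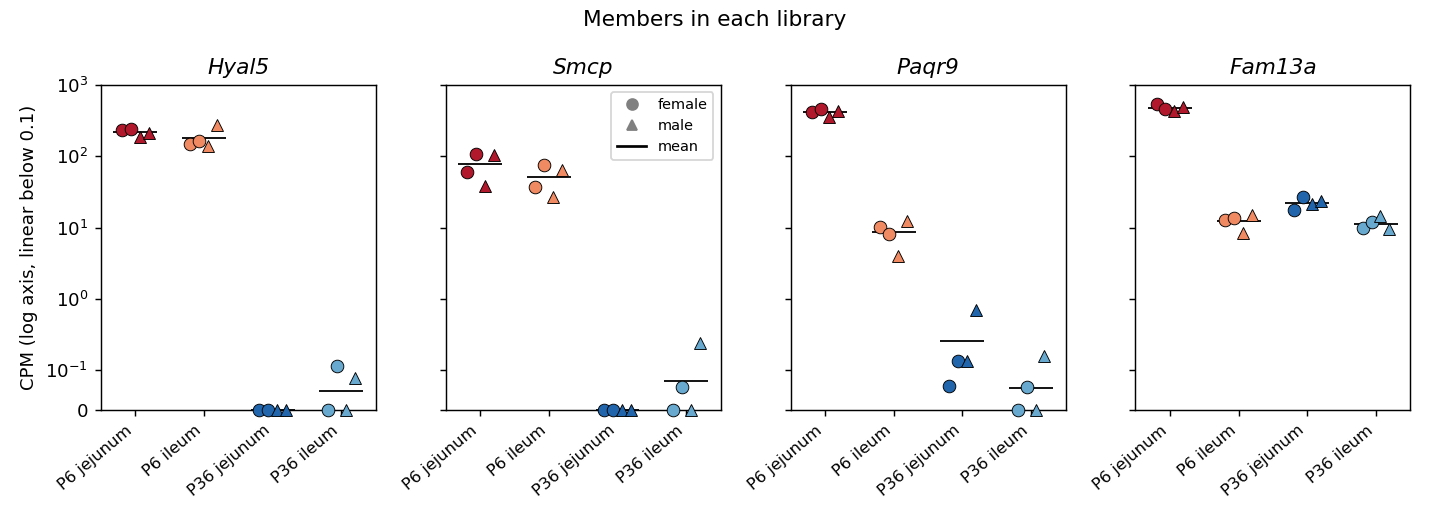
CPM of Hyal5, Smcp, Paqr9 and Fam13a in each of the 16 libraries (y axis, logarithmic above 0.1 and linear below), by group, with circles for female mice, triangles for male mice and a bar at the mean of 4 libraries. Hyal5 and Smcp are high in both P6 groups and near 0 at P36, whereas Paqr9 and Fam13a are high in the P6 jejunum alone and Fam13a stays between 8.29 and 26.8 CPM in the other 12 libraries.

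Levels were compared between genes as RPKM, which divides by the counted exon length. In the P6 jejunum Paqr9 was at 179 RPKM and ranked 418 of 17028 genes above 0, Fam13a at 112 RPKM and 705, Hyal5 at 105 RPKM and 740, and Smcp at 87.1 RPKM and 900. In the P6 ileum Hyal5 kept rank 738 and Smcp 1185, while Paqr9 fell to 8677 and Fam13a to 9308 of 17834 genes. Their levels were thus within a narrow span in the P6 jejunum but far apart in the P6 ileum.

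As a description of the contrast that chose them, the fall in the jejunum was at least 5902-fold for Hyal5 and at least 2111-fold for Smcp by summed counts scaled by library size, against a floor of 3 counts over the P36 group. The exact 95% counting intervals of these folds begin lower, at 4799 and 1716. For Paqr9 the ratio of summed counts was 1676, with an exact counting interval of 1085 to 2743, and without P36 jejunum replicate 4 it was 3674. For Fam13a it was 21.2 (20.2 to 22.2). These intervals cover counting error only. By fitted log2 fold change, Hyal5 ranked 1, Smcp 2, Paqr9 16 and Fam13a 387 among the falls of 13429 genes tested. Of all tested genes, 8.59% were called higher at P6 in the jejunum, where a call is an adjusted p below 0.05 and a fold change above 2 on the log2 scale, and the groups of 33.0% did not overlap in that direction. The choice of the 4 genes fixed their place in this contrast, so nothing is read from these shares. Fam13a is the smallest fall of the 4.

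No counts at all were found in the P36 jejunum for 7645 genes, of which 42 had a mean of at least 1 CPM in the P6 jejunum. Hyal5 with 18706 counts and Smcp with 6691 counts in the P6 jejunum were the most abundant of these. The next were the claudin Cldn19 with 3960 counts, Serpinb9b with 2284 and Gm13178 with 1510.

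In the ileum, whose libraries the choice did not use although they come from the same mice, 3 of the 4 genes fell with age. The call was made for 10.0% of tested genes in this direction. Hyal5 fell by 11.88 on the log2 scale (SE 0.48, edgeR adjusted p = 5.10e-10), from 180 to 0.0481 CPM, a ratio of summed counts of 4389 with a counting interval of 1502 to 21287. Smcp fell by 9.67 (SE 0.72, adjusted p = 1.50e-07), with a ratio of 949 (370 to 3484). Paqr9 fell by 7.49 (SE 0.67, adjusted p = 1.43e-07), with a ratio of 212 (72.1 to 1029). The groups did not overlap for any of these 3 genes, nor for 23.6% of tested genes in this direction. With 3 or 4 counts left at P36, the fitted sizes depend on the prior count, and single libraries decide the ratios: without P36 ileum replicate 2 that of Hyal5 was 9980, without replicate 4 those of Smcp and Paqr9 were 3137 and 525, and without replicate 3 the 3 ratios were 2914, 630 and 141.

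Fam13a showed no change with age in the ileum that passed the test, with a log2 fold change of -0.13 (95% interval -0.53 to 0.27, adjusted p = 0.576) between means of 12.5 and 11.4 CPM. The interval covers P36 levels from 0.691 to 1.20 times those at P6. Its fitted change in the jejunum was -4.42 on the log2 scale. Each ileal result held its side of the threshold with any library left out, P6 ileum replicates 2 and 4 included.

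**Figure D2:**
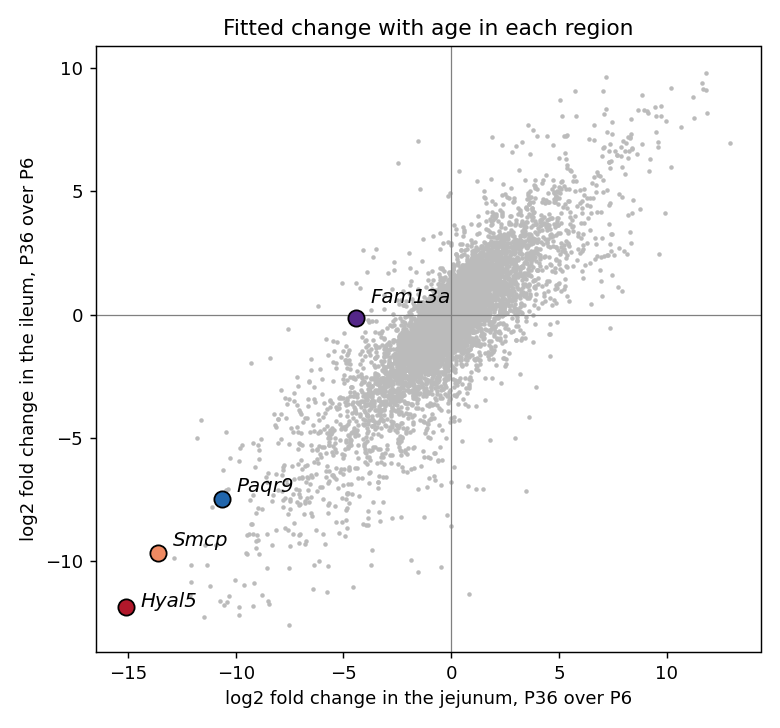
Fitted log2 fold change with age (P36 over P6) in the jejunum (x axis) and in the ileum (y axis) for the 13429 tested genes in grey, with the 4 genes coloured. Hyal5, Smcp and Paqr9 lie at the lower left, at -11.88, -9.67 and -7.49 in the ileum, and Fam13a lies at -4.42 in the jejunum and -0.13 in the ileum.

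Between the regions at P6, the genes split into 2 kinds, again as a description because the P6 jejunum chose them. Mean CPM in the jejunum was 47.9-fold that in the ileum for Paqr9 and 38.4-fold for Fam13a, with no overlap between the groups, which held for 15.0% of tested genes toward the jejunum (2.2% were called). For Hyal5 the fold was 1.21 and for Smcp 1.53, and the groups overlapped for both. With library totals alone in place of TMM scaling the Hyal5 fold was 0.988, so no direction is drawn for it. That scaling moved the median regional difference of all tested genes from -0.05 to -0.33 on the log2 scale and the share of calls toward the jejunum from 33.9% to 22.8%.

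Within mice, Paqr9 in the jejunum was 40.6, 56.1, 88.9 and 35.3 times its level in the ileum of P6 mice 1 to 4, and Fam13a 42.0, 33.9, 52.1 and 31.9 times. Mouse 3 had the widest gap for both genes. Smcp was 1.65, 1.43, 1.44 and 1.62 times as high in the jejunum, higher in 4 of 4 mice, while Hyal5 was higher in the jejunum of 3 mice and lower in mouse 4, at 0.767 times. At P36, Fam13a was higher in the jejunum of 4 of 4 mice, by 1.49 times in mouse 3 at the least, a fold of the means of 1.97 with no overlap between regions (13.5% of tested genes toward the jejunum, 2.06% called). Paqr9 at P36 had 20 counts in the jejunum and 3 in the ileum, and its groups overlapped.

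The epithelial label and other cell types were checked beside these results. Adipocyte markers were looked at because Fam13a is studied in fat: 4 of the 5, Adipoq, Plin1, Lep and Cfd, were at 0 in both P6 groups, and the summed level of 339 to 402 CPM in the P6 jejunum was all Cidec, a lipid droplet gene, against 45.7 to 118 in the P6 ileum, 29.5 to 54.9 in the P36 jejunum, and 3.27 to 21.1 in the ileum at that age. Of 6 hepatocyte markers, Alb and Cyp2e1 were at 0 in the P6 jejunum. The sum there was 2935 to 3390 CPM, of which the urea cycle gene Cps1 made up 2661 to 3191 and Ttr 199 to 350. It was 2097 to 3511 in the P6 ileum, 1128 to 1447 in the P36 jejunum and 1030 to 1662 in the ileum at that age. Ttr was at 35.4 to 213 CPM in the P6 ileum and at most 4.04 in any P36 library. Of 5 pancreatic acinar markers, Cpa1, Pnlip and Prss2 were at 0 in the P6 jejunum, and the sum was 108 to 302 CPM there and at most 6.61 in each other group. That sum was Ctrb1, at 89.1 to 277 CPM, and Cela1, at 18.8 to 29.4 CPM. In the other groups Ctrb1 reached at most 2.47 CPM and Cela1 at most 6.00, so both were high in the P6 jejunum alone. Whether cells of these types had a part in the values of Paqr9 and Fam13a was not tested.

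The smooth muscle list (7 genes) summed to 396 to 457 CPM in the P6 jejunum, 203 to 484 in the P6 ileum, 259 to 274 in the P36 jejunum, with 114 to 209 for the P36 ileum. In the P6 jejunum nearly all of this was Mylk, at 394 to 455 CPM, while Myh11 was at 0.223 CPM or less. The immune list (7 genes) summed to 418 to 501 CPM in the P6 jejunum, 167 to 342 in the P6 ileum and 23.3 to 81.0 at P36, and its P6 jejunum level was nearly all Csf1r, at 414 to 498 CPM, with the pan-leukocyte gene Ptprc at 0.567 to 1.20. Goblet, Paneth and tuft cell genes were lower at P6: the 5 goblet cell genes summed to 1420 to 3382 CPM in the P6 libraries and 9565 to 19791 at P36, the 5 Paneth cell genes to 20.9 to 802 and 4218 to 14493, and the 4 tuft cell genes to 0.624 to 3.57 and 9.55 to 20.8, and every gene of these lists was above 0 in each group. The 5 enteroendocrine genes did not share this order, with sums of 137 to 175 CPM at P6, 150 to 210 in the P36 jejunum and 89.4 to 170 in the P36 ileum. The spread of the Paneth cell sum at P6 was mostly Itln1. Over both regions it was at 435 to 782 CPM in P6 replicates 1 and 3 and at 4.36 to 10.3 in replicates 2 and 4. The part of any of these cell types in the results was not tested.

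The testis genes Hyal5 and Smcp were not accompanied by most other sperm genes. Of 27 sperm and spermatid genes, 10 had no count in any of the 16 libraries, among them the protamine Prm2, the transition proteins Tnp1 and Tnp2, the sperm lactate dehydrogenase Ldhc and the fibrous sheath gene Akap4. A further 13 stayed under 1 CPM in every library, Prm1 with 1 count in all. The 4 that were tested were Odf2, Zpbp2, Gpx4 and Sord, of which Gpx4 and Sord are also widely used outside the testis, and 0 of the 4 were called with age in either region by edgeR. Zpbp2, which encodes a protein of the acrosome, had mean levels of 1.23 and 0.315 CPM in the jejunum at P6 and P36 and came nearest to the threshold, at -1.94 on the log2 scale (adjusted p = 0.00336).

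Hyal5 sits at the end of a row of hyaluronidase genes that were otherwise nearly silent. Hyal6, Hyal4 and Spam1, the next 3 genes on one side, had 2, 3 and 0 counts in all 16 libraries. Of the other neighbours, Wasl and Pot1a were present in every library, at 129 to 204 and 8.61 to 15.6 CPM in the group means. Among 11 tested genes of hyaluronan turnover, 1 rose and 4 fell in the jejunum (against 7.86% and 8.59% of all tested genes), and 0 rose and 3 fell in the ileum (against 6.4% and 10.0%). The median change was -0.62 in the jejunum and -0.32 in the ileum on the log2 scale, against -0.01 and -0.03 over all tested genes. Those that fell in both regions were the lysosomal enzymes Gusb and Hexa, which trim the sugars that hyaluronidases release but also those of many other glycans, and the scavenger receptor Stab2. Gusb fell by 3.69 in the jejunum (SE 0.19, adjusted p = 2.31e-10) and fell by 4.13 in the ileum (SE 0.19, adjusted p = 1.15e-10).

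Stab2 differed from Hyal5 in place, at 42.8 CPM in the P6 ileum against 2.45 in the P6 jejunum. The hyaluronidase Hyal3 fell in the jejunum alone by the call, by 2.00 (adjusted p = 0.00393), from 1.49 to 0.364 CPM, a size at the edge of the call that came under it with library totals alone (-1.91) and without any of 8 single libraries, P36 jejunum replicates 1, 3 and 4, P6 jejunum replicates 2 and 4, P6 ileum replicates 1 and 3 and P36 ileum replicate 2. The cell surface hyaluronidase Tmem2 rose there by 2.25 on the log2 scale (SE 0.18, adjusted p = 3.84e-08), from 7.04 to 33.5 CPM. Hyal1 and Hyal2, the most widely expressed hyaluronidases, were not called, at 2.31 and 41.3 CPM in the jejunum at P6 against 0.907 and 60.3 CPM at P36.

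Smcp lies in the epidermal differentiation complex, a cluster of genes for the cornified envelope of skin. Of 47 genes of the complex in the files, 32 had no count in any library and 7 were tested. Of these 7, 4 fell in the jejunum and 5 in the ileum (against 8.59% and 10.0% of all tested genes) and 0 rose. Among the falls, Ivl, Lor and Tchhl1 were at 0 counts in the P36 jejunum, and Ivl and Tchhl1 also in the P36 ileum. Such genes were tested because of their P6 counts and could only fall, so nothing is read from these shares. Lor and Tchhl1 had only 55 and 19 counts over the P6 jejunum libraries. The gene on one side, Ivl, which encodes the envelope protein involucrin, had a mean of 1.44 CPM in the jejunum of P6 mice, 0.558 in their ileum and no count at P36. Against the floor of 3 counts over the P36 group it was at least 38.8-fold lower in the jejunum (adjusted p = 0.00868) and at least 13.9-fold lower in the ileum (adjusted p = 0.0318). Its fitted log2 changes of -7.86 and -6.51 depend on the prior count and were -4.72 and -3.67 with the mouse as a replicate block. The ileal call was lost with any of 5 single libraries left out, P6 ileum replicates 2 and 4 and P36 ileum replicates 1, 2 and 3 (highest adjusted p 0.0745). The gene on the other side, Lce6a, had 0 counts in the P6 jejunum but 69, 199, 54 and 311 counts in the P6 ileum replicates 1 to 4, and 1 count at P36.

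Sprr1b, Sprr3, Sprr4, Lce1a1, Lce1b and Lce1a2, all within 5 genes of Smcp, had no count in any library. Lce1c had 17 counts in all, nearly all in the P6 jejunum, and Sprr1a was not called with age. Elsewhere in the complex Tchh, which encodes trichohyalin of hair follicles, fell by 3.34 in the jejunum (adjusted p = 6.35e-05) and fell by 3.12 in the ileum (adjusted p = 9.89e-05), from 16.3 and 19.0 CPM at P6.

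**Figure D3:**
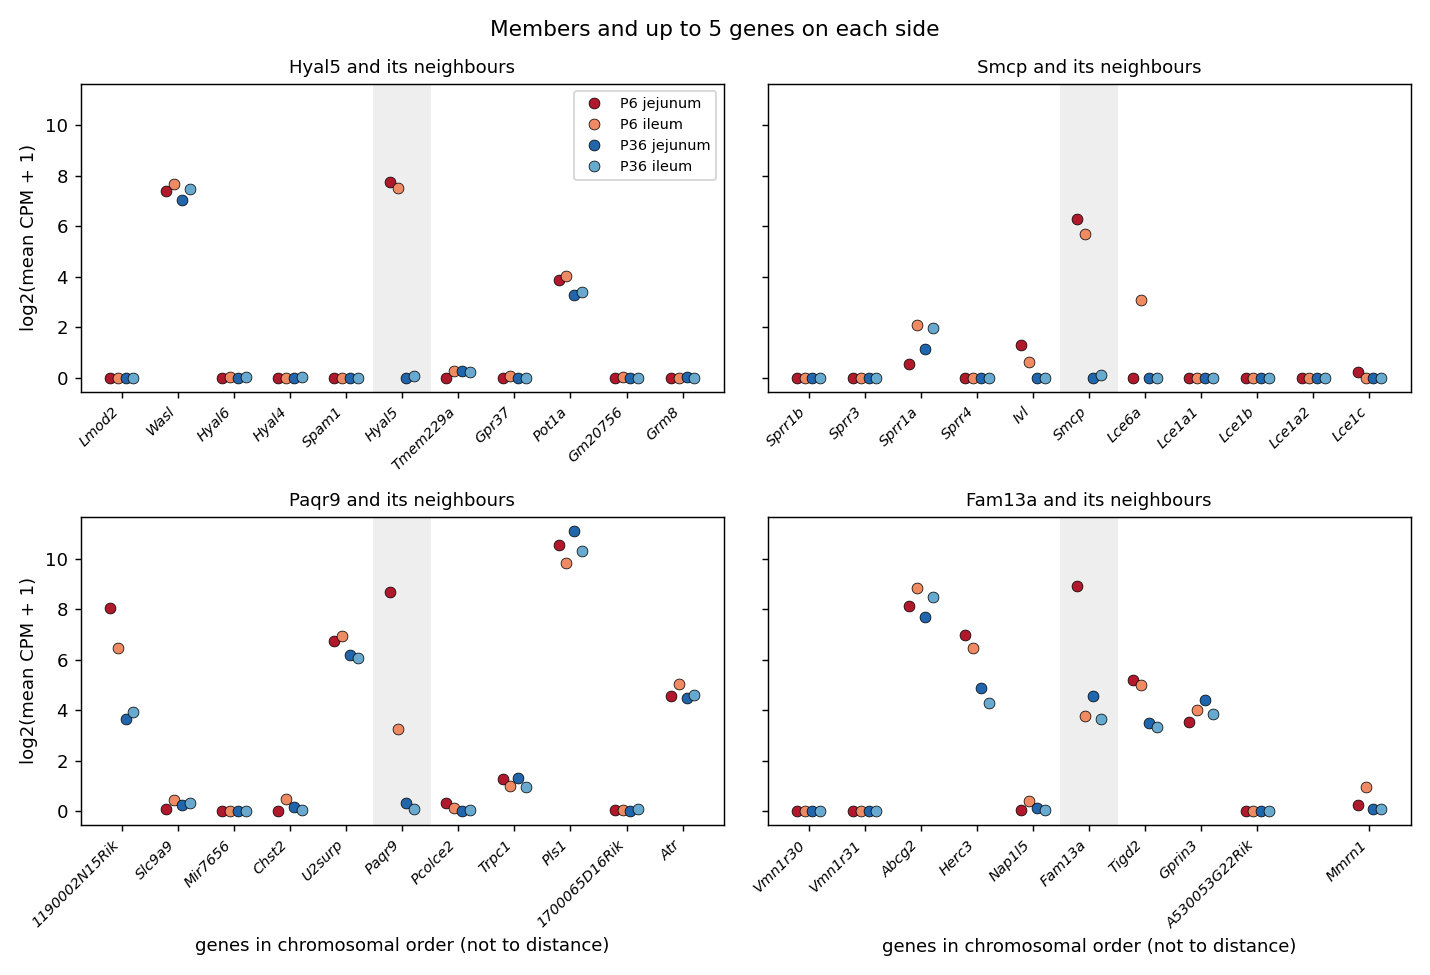
Mean level in each group, as log2 of the mean CPM plus 1 (y axis), of each of the 4 genes (shaded) and up to 5 genes on each side in chromosomal order (x axis, not to distance), with colours for the 4 groups. Hyal5 and Smcp stand among neighbours that are mostly at 0, whereas Paqr9 and Fam13a stand among a mix of genes at or near 0 and genes present at both ages, and 1190002N15Rik and Herc3 among the latter fell with age.

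The P6 mice carry labels with 2 stems, L41800 (replicates 1 and 3) and L42150 (replicates 2 and 4), whose meaning is not stated, and each stem has 1 female and 1 male mouse. Smcp separated the stems in both regions: it was at 38.7 and 60.6 CPM in the jejunum of L41800 mice against 103 and 108 in L42150 mice, and at 26.9 and 36.8 against 63.6 and 75.3 CPM in the ileum. The fold of the means was 2.12 in the jejunum and 2.18 in the ileum. Of all tested genes, 9.73% separated the stems in this direction in both regions. Ivl did so as well, at 0.131 and 0.157 CPM against 1.69 and 3.78 in the jejunum, and Lce6a separated them in the ileum with a fold of 3.76. The Paneth cell gene Itln1 separated the stems in the other direction, as did 7.88% of tested genes in both regions. It was at 556 and 782 CPM in the jejunum of L41800 mice against 4.36 and 7.09 in L42150 mice. In the ileum it was at 435 and 620 against 8.08 and 10.3 CPM.

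The other 3 genes separated the stems in 1 region each. The share of all tested genes that separated them in a single region was not counted. Nothing is therefore read from these separations, nor from that of Lce6a in the ileum. Hyal5 did not in the jejunum (fold 1.07) but did in the ileum, at 140 and 147 CPM against 162 and 273 (fold 1.52). Fam13a likewise did not in the jejunum (fold 0.982) but did in the ileum, at 8.29 and 12.7 CPM against 13.7 and 15.2 (fold 1.38). Paqr9 did in the jejunum with a fold of 1.16 and did not in the ileum (fold 1.44). The difference by stem was not tested, with 2 mice each.

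**Figure D4:**
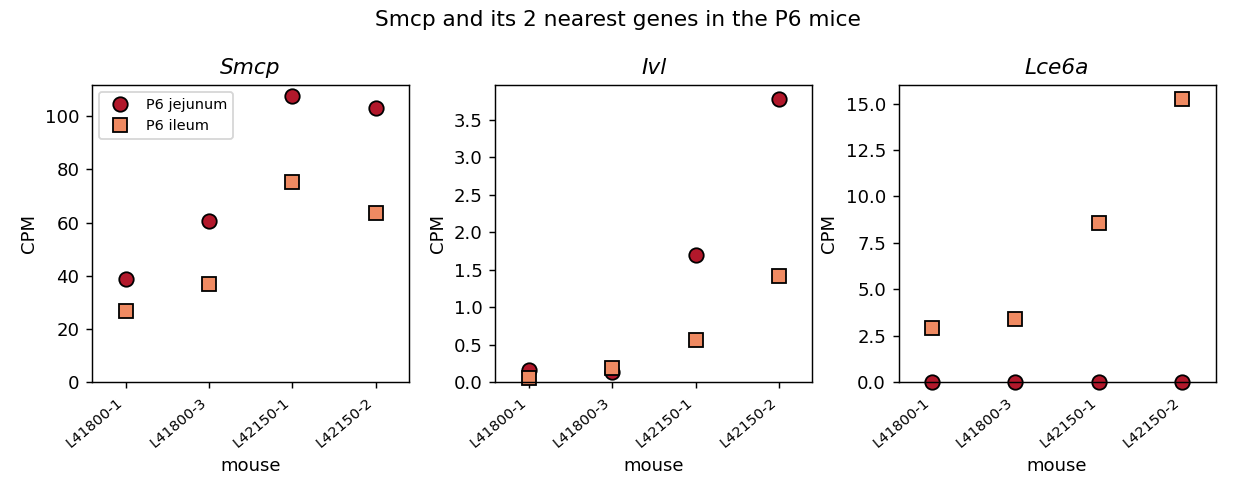
CPM (y axis, from 0, with a scale for each gene) of Smcp and the genes on either side of it, Ivl and Lce6a, in the 4 P6 mice (x axis, named by their labels), with circles for the jejunum and squares for the ileum. Smcp is at 26.9 to 60.6 CPM in the L41800 mice and at 63.6 to 108 CPM in the L42150 mice, and Lce6a is at 0 in the jejunum of all 4.

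Paqr9 belongs to a family of membrane receptors for steroids and adiponectin. Of 9 tested genes of the PAQR family and its partners, 1 rose and 1 fell in the jejunum (against 7.86% and 8.59% of all tested genes) and 2 rose and 1 fell in the ileum (against 6.4% and 10.0%), with medians of -0.48 and -0.49 on the log2 scale. Paqr7, a membrane progestin receptor, fell by 4.51 in the jejunum (SE 0.25, adjusted p = 6.65e-10) and fell by 3.15 in the ileum (SE 0.24, adjusted p = 2.63e-08), and it was higher by 2.35 in the jejunum than in the ileum at P6 (SE 0.23, adjusted p = 2.17e-06). Its mean level was 247 CPM in the P6 jejunum, 48.5 in the P6 ileum, and at P36 10.8 in the jejunum against 5.44 in the ileum. The same order of groups held for Paqr9.

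Paqr4 rose in both regions, by 3.50 and 4.68 on the log2 scale, from 6.77 to 76.8 CPM in the jejunum. Paqr5 rose in the ileum by 2.39 (adjusted p = 0.000607). At P6 its jejunal level differed from its ileal level by -2.07 on the log2 scale (adjusted p = 0.00855), a call that was lost with the mouse as a replicate block, at -1.71, and without any 1 of P6 ileum replicates 1, 2 and 3 and P6 jejunum replicate 2. The adiponectin receptors Adipor1 and Adipor2 were not called with age in either region. Of the genes around Paqr9, 1190002N15Rik, the fifth gene on one side, fell by 4.50 in the jejunum (SE 0.24, adjusted p = 4.89e-10) and fell by 2.59 in the ileum (SE 0.23, adjusted p = 1.12e-07), while U2surp and Pls1, nearer to it, were not called.

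Fam13b, the paralogue of Fam13a, had a jejunal mean of 48.7 CPM at P6 against 122 at P36, a change of 1.32 on the log2 scale under the fold needed for a call (adjusted p = 0.000193). Of 17 tested Fam13 and GTPase-activating genes, 1 rose and 1 fell in the jejunum (against 7.86% and 8.59% of all tested genes) and 0 rose and 2 fell in the ileum (against 6.4% and 10.0%), with medians of 0.28 and 0.11. Arhgap44, a GTPase-activating gene known from neurons, fell by 6.21 in the jejunum (SE 0.44, adjusted p = 9.30e-09) and fell by 5.44 in the ileum (SE 0.46, adjusted p = 7.33e-08), from 20.3 and 8.09 CPM. Arhgap29 rose in the jejunum by 2.10 (adjusted p = 7.19e-08), and Dlc1 fell by 3.23 in the ileum (adjusted p = 0.000595).

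Beside Fam13a, the ubiquitin ligase gene Herc3 fell by 2.14 in the jejunum (SE 0.13, adjusted p = 1.74e-09), and it fell by 2.26 in the ileum (SE 0.13, adjusted p = 1.27e-09). The multidrug transporter gene Abcg2 and Gprin3, also near Fam13a, were not called with age.

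The lists of suckling and weaned enterocyte genes give the setting in which the 4 genes moved. Of 17 tested suckling genes, 13 fell in the jejunum and 16 in the ileum (against 8.59% and 10.0% of all tested genes) and 0 rose. The medians were -4.34 and -3.96 on the log2 scale. The ileal calls of Amn and Cubn, at -2.02 and -2.17, lay near the threshold and were lost under some alternatives, for Cubn without P36 ileum replicate 3 or P6 ileum replicate 4. Among the genes that fell were the cathepsin Ctsl, which fell by 9.07 in the jejunum, the endocytic adaptor Dab2, which fell by 9.53, and the antibody receptor Fcgrt, which fell by 7.03 in the jejunum and was higher in the P6 jejunum than in the P6 ileum by 3.39 (adjusted p = 2.53e-06). Of 14 tested weaned genes, 9 rose and 1 fell in the jejunum (against 7.86% and 8.59% of all tested genes). In the ileum 7 rose and 2 fell (against 6.4% and 10.0%). Sucrase-isomaltase (Sis) rose by 9.23 and 6.30. The fall of 1 in the jejunum was the alkaline phosphatase Alpi, by 2.27. The falls in the ileum were Alpi and Slc2a2, at -4.10 to -2.95 and -4.56 to -3.75 on the log2 scale with any library left out. The lists were assembled from textbook knowledge with earlier results in view, so their direction is no independent evidence.

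**Figure D5:**
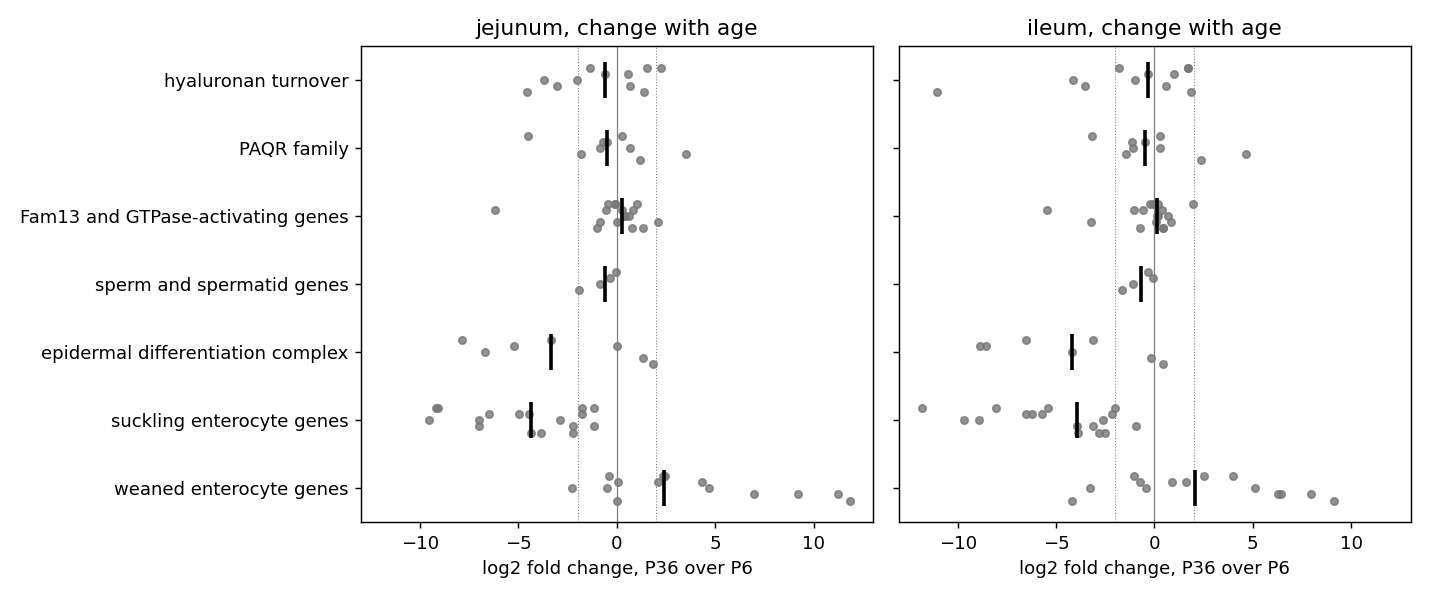
Log2 fold change with age (x axis, P36 over P6) in the jejunum (left) and the ileum (right) of the tested genes of each list, as grey points with a black bar at the median of the list, and dotted lines at the fold needed for a call. The medians of the hyaluronan, PAQR and GTPase-activating lists lie between -0.62 and 0.28, those of the epidermal complex at -3.34 and -4.18 (-2.58 and -3.79 with the genes at 0 in a P36 group set to their bound), those of the suckling list at -4.34 and -3.96 and those of the weaned list at 2.40 and 2.08.

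The genes whose log2 CPM over the 16 libraries was most like that of Hyal5 were 5830473C10Rik, Plagl2, Fnip2, Stra6l and Cdkn1c, with Pearson's r of 0.996 to 0.998. Those most like Smcp were Cdkn1c, Fnip2, Ppp1r21, Ap3m2 and 5830473C10Rik (r 0.991 to 0.995), so that 3 genes stood in both lists. Hyal5 and Smcp correlated with each other at r = 0.995 over 16 libraries and 0.661 over the 8 P6 libraries. Both were chosen for a fall with age in the jejunum, so the first value follows in part from the choice. Hyal5 and Paqr9 correlated at r = 0.560 over the 8 P6 libraries. These values describe 4 groups of libraries that share mice and depth, and they carry no p. Cdkn1c, the cell cycle inhibitor p57, was at 198 and 184 CPM in the P6 jejunum and ileum and at 1.98 and 1.86 at P36.

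Paqr9 was most like Zbtb5, 1700034O15Rik, Paqr7, Olah and Lrrc4 over the 16 libraries (r 0.985 to 0.995), and Fam13a was most like Cnot8, Clint1, Ap1s3, Slc30a6 and Gstm5 (r 0.979 to 0.985). Ap1s3, a subunit of a clathrin adaptor, had the pattern of Fam13a at 123 CPM in the P6 jejunum, 9.09 in the P6 ileum, and at P36 9.59 in the jejunum against 7.57 in the ileum. Over the 8 P6 libraries alone, Paqr9 and Fam13a correlated at r = 0.997, against 0.836 over all 16. Both were chosen for a high level in the P6 jejunum, 47.9- and 38.4-fold that in the P6 ileum. The P6 value therefore follows in large part from that gap, and nothing is read from it. Over the P6 libraries Paqr9 was most like Slc16a1, Rmdn3, 1700034O15Rik, Pid1 and Slc16a6. Of these, Slc16a1 encodes the monocarboxylate transporter that carries lactate and ketone bodies. Fam13a was most like 1700034O15Rik, Cdr2, Slc9a3, Sec16b and Tdrp, of which Slc9a3 encodes the brush border sodium-hydrogen exchanger.

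Male and female mice were compared at P6, a split that the choice of genes did not use. In the P6 jejunum 0.0372% of tested genes were called by sex and in the P6 ileum 0.0447%, and 0 of the 4 genes were called in either region by edgeR or with limma voom, with 0 of 4 at an unadjusted p under 0.05. The log2 difference of male minus female mice in the jejunum was -0.29 for Hyal5 (95% interval -1.13 to 0.56), -0.25 for Smcp (-1.67 to 1.17), -0.14 for Paqr9 (-1.26 to 0.98) and -0.12 for Fam13a (-0.77 to 0.52), with adjusted p = 1 for each. In the ileum it was 0.42 for Hyal5 (-0.43 to 1.26, adjusted p = 0.697), -0.31 for Smcp (-1.73 to 1.11), -0.16 for Paqr9 (-1.33 to 1.01) and -0.17 for Fam13a (-0.83 to 0.49). With 2 mice of each sex the intervals are wide, and for Smcp in the jejunum they run from 0.315 to 2.25 times the female level. Within each label stem, which holds 1 male and 1 female mouse, the male mouse had less Smcp in both regions. Smcp in the male mouse was 0.639 and 0.956 times that in the female mouse in the jejunum and 0.732 and 0.845 times in the ileum. These are only 2 pairs of mice. Both regions come from the same mice, so the ileum is no independent repeat of the jejunum. With the stem as a covariate, a fit added after seeing the data, the Smcp difference was -0.35 (SE 0.39) in both regions, and 0 of the 4 genes were called by edgeR. Without P6 ileum replicate 3 the Hyal5 difference in the ileum was 0.82 and was called, among 5115 genes called by sex in that fit, in which replicate 4 was the lone male library.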

How the data were processed

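RNA was sequenced from the EDTA-released epithelium of the jejunum and ileum of 8 mice, 16 libraries. The authors made stranded mRNA libraries, trimmed reads with Trimmomatic 0.38, aligned them with STAR (2.5.3 per the labels' processing notes) and deposited raw counts of read pairs on the exons of 24421 genes (featureCounts of Subread 1.6.3, reverse strand setting, UCSC mm10 annotation). The files hold no other sample's columns.

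The 4 genes and all lists were chosen with earlier results of these data known. Genes kept by filterByExpr (13429) were scaled by TMM, and edgeR's quasi-likelihood test was run in edgeR 4.0.16 (R 4.3.3) as 1 fit of 16 libraries with 4 group means, or 8 means for sex, with Benjamini-Hochberg adjustment over all tested genes. A call required an adjusted p below 0.05 and, except for sex, an absolute log2 fold change above 2. SE is the log2 fold change divided by the square root of F. CPM also carry the TMM factors, with a prior count of 2 on the log2 scale. Counting intervals are exact at 95% and, like the floor of 3 counts per group, cover counting error only. The fits were tested on simulated counts with known changes. Library totals of 12.2 to 25.9 (in units of 1e6 counts) limit the smallest level seen.

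Named genes were the 4 genes, up to 3 called genes per list, direction and comparison with the smallest adjusted p, up to 5 nearest genes on each side, the 5 of highest correlation and the cell type markers. Hyal1, Hyal2, Adipor1, Adipor2, Fam13b, Hyal3, Amn, Cubn, the sperm genes and those without counts at P36 were named outside that rule, after their values were seen. Jejunum and ileum of a mouse deviated together from the group means (r 0.157 to 0.391 for each of 8 mice, across genes). Between different mice of an age r ran from -0.367 to 0.232, so the ranges overlap. The labels name the same mouse for both regions, so its libraries are paired, and a fit with limma 3.58.1 (voom) took the mouse as a replicate block. DESeq2 1.42.0 and other scalings, filters and libraries were alternatives, and the label stem as a covariate and ratios without each library were added after seeing the data. Replicates differed beyond counting noise (chi-square per gene of at least 13.2). What the authors' comparisons found was not used. The single-cell, knockout and human data were not analysed here, and 2 genes that the rules would name are not reported here or counted in the lists and neighbours.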

Additional observations from a re-analysis of the deposited data

Results flagged for a closer look

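Hyal5 in the P6 ileum had 1 library, replicate 4 at 273 CPM, that stood away from the other 3 (140 to 162 CPM), with a gap of 0.834 of the whole range, which is past Dixon's critical value for 4 samples. The same library had the lowest Vil1 but the highest Apob and Fabp2 of its group, and the part of this in the Hyal5 value was not tested. Paqr9 in the P36 jejunum had replicate 4 at 0.693 CPM, or 13 counts, against 1 to 3 counts in the other 3, with a gap of 0.88 of the range. These are 2 flags in the 14 of 16 sets of 4 libraries that had any spread. Chance flags about 1 in 20 sets of continuous values, a rate that the P36 sets of few counts need not follow.

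The change with age differed between the regions by the interaction test for 1 of 14 tested neighbours of the 4 genes. For 1190002N15Rik, near Paqr9, the change in the jejunum minus that in the ileum was -1.91 on the log2 scale (SE 0.30, adjusted p = 0.000904).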

How the results depend on the processing

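The ileal falls of Hyal5, Smcp and Paqr9 kept their calls in all 24 alternatives each, with the highest adjusted p of 4.77e-05 for Paqr9, and Fam13a stayed negative and uncalled (adjusted p 0.209 to 0.931). With any library left out the ileal log2 changes ran from -12.84 to -11.36 for Hyal5, -11.12 to -9.13 for Smcp, -8.56 to -6.97 for Paqr9 and -0.27 to -0.02 for Fam13a. With the mouse as a replicate block, the pairing of regions changed the calls of Car4, Dlc1 and Paqr5 between regions at P6, Nox4 at P36 and Amn with age in the ileum to no call, and no other call among those named. The blocked ileal changes were -11.64, -9.64, -7.21 and -0.10.

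With library totals alone the P6 jejunum means of all 4 genes were lower, at 195 CPM for Hyal5, 69.3 for Smcp, 371 for Paqr9 and 430 for Fam13a, of which the last moved by more than the SD between libraries. Genes called by sex with 1 library left out numbered 2 to 5 in the P6 jejunum and 4 to 5115 in the P6 ileum, where 5115 came without replicate 3. The sex differences then ranged in the jejunum from -0.38 to -0.19 for Hyal5, -1.12 to 0.29 for Smcp, -0.30 to 0.0063 for Paqr9 and -0.22 to -0.02 for Fam13a, and in the ileum from -0.14 to 0.82, -1.06 to 0.30, -1.20 to 0.43 and -0.67 to 0.20. Of the other named genes, Khk lost its regional call at P6 with library totals alone (1.84). Amn was also lost in the ileum without P36 ileum replicates 2 or 3, P36 jejunum replicate 3 or P6 ileum replicates 1, 2 or 3. Counts of 0 in a P36 group of 4 libraries allow a level of up to 0.0372 CPM in the jejunum, so lower expression was not detectable at this depth.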
